A study of Homo sapiens with 4 samples.

Results

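The cytoplasmic ribosomal protein genes encode the protein parts of the ribosome that translates nuclear genes. They were followed here in SAS cells, a tongue squamous carcinoma line, after knockdown of AEG-1 (astrocyte elevated gene-1, also called LYRIC and listed as MTDH). Members were the genes with the symbols RPL or RPS and a number (with A, X or L after it where present), together with RPLP0, RPLP1, RPLP2 and RPSA. The kinases named RPS6K and pseudogenes were left out. The files carry no gene names, so the rule was applied to RefSeq symbols (GRCh38.p14) matched through each probe's accession. It gave 80 genes, 49 of the large (60S) and 31 of the small (40S) subunit, out of 16582 named genes tested. The 80 genes were read by 153 of 34127 probes. All but 1 of these probes, 1 of those for RPL10, passed the filter on signal, so every member was tested. A gene is given by its brightest probe, and 41 genes had a single probe.

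SB cells carried pLKO.1-LYRIC shRNA-B, delivered by lentivirus. For the control SCt cells, the labels name the pLKO.1 vector and the study's methods a scrambled shRNA. Both were stable clones kept under 2 µg/ml puromycin after a selection of 14 days, so vector and antibiotic were common to both and each stands for 1 stable line. Labelled cDNA from 15 µg of RNA of each was hybridized together on 4 two-colour Agilent arrays, with SB in red and SCt in green each time. No array had the dyes swapped, so a probe's preference for one dye cannot be told apart from an effect of the knockdown. The labels call the arrays biological replicates. Whether they come from separate cultures is not settled by the sources used here, and p-values then measure only the spread between these arrays, which may be technical. In bulk RNA, fewer cells of a kind and less RNA per cell cannot be told apart.

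Every ribosome holds 1 copy of most of these proteins (the acidic stalk proteins RPLP1 and RPLP2 are the exception), and their mRNAs are among the most abundant in growing cells. Transcription of most ribosomal protein genes starts at a C within a run of pyrimidines. The run forms the 5′ terminal oligopyrimidine (TOP) motif of the mRNA, through which the mTOR pathway controls translation of the whole group at once. Proteins that are not built into ribosomes are usually degraded. An excess of RPL5 and RPL11, which carry 5S rRNA to the large subunit, can bind MDM2 and stabilise p53. RPS3 is also known as a partner of the NF-κB subunit p65.

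The shared start motif is shown for 5 genes on which the results below turn: RPS3 and RPL4, which had a higher level in SB cells by the test, and RPL31, RPL36A and RPL38, which are among the members that differed most between arrays. Each stretch holds 40 bases before and 20 bases from the RefSeq start (GRCh38.p14), 5′ to 3′ on the gene's own strand. Capitals mark the run of C and T that reaches the annotated start within 1 base.
RPS3, chr11:75399478-75399537, plus strand: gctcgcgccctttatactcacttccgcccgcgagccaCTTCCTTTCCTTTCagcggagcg
RPL4, chr15:66504836-66504895, minus strand: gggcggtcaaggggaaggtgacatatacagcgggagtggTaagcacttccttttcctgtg
RPL31, chr2:101002249-101002308, plus strand: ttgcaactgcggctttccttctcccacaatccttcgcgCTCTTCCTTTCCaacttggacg
RPL36A, chrX:101390971-101391030, plus strand: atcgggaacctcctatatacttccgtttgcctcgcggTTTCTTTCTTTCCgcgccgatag
RPL38, chr17:74203638-74203697, plus strand: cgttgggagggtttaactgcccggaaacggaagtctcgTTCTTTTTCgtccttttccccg

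The run was 14 bases long in RPS3, 12 in RPL31, 13 in RPL36A and 9 in RPL38. In RPL4 it was 1 base, just before the annotated start, and a longer pyrimidine stretch followed a few bases further on. Of the 63 members in the RefSeq table of start regions, 45 (71.4%) had a run of at least 6 bases. The share was 15.3% in 22121 start regions of other coding genes. Each member was counted once, while other genes could have more than 1 region. Within 250 bases before and 50 after the start, on either strand, CCGGAAG (a core bound by ETS factors) was found in 33.3% of members against 12.8% of the others. ATGGCGG, part of a YY1 site, was found in 19.0% against 6.95%. GGGCGG, an SP1 site, was found in 55.6% against 56.3%, and TATAAA in 9.52% against 9.48%. These are matches of letters and not measured binding. The 45 members with a run of at least 6 had a median log2 ratio of SB over SCt of 0.17, and the 18 with a shorter run had one of 0.11.

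Each array held 43118 spots other than controls, of which 85.4% to 90.3% were well above background for SB and 84.7% to 90% for SCt, and 0 were saturated. The target of the shRNA was lower in SB cells. The log2 ratios of MTDH were −3.18, −3.01, −3.12 and −3.41 on arrays 1 to 4, a mean of −3.18 ± 0.17 (SD, n = 4 arrays; limma, adjusted p = 5.19e-10). Of 8 squamous epithelial markers, among them KRT5, KRT14 and TP63, all 8 had both channels well above background on each array. Markers of other cell types also passed the filter on signal: 4 of 5 for leukocytes (LYZ was not on the array by name), 3 of 5 for fibroblasts, 4 of 4 for endothelium and 3 of 5 for muscle. On every array, both channels of all 80 ribosomal protein genes were well above background, and 74 of them lay in the brightest 5% of tested probes. Their median log2 signal, averaged over both channels, was 15.91, against 9.86 for all tested probes. Bright probes are those for which the dye normalization has the fewest neighbours, so results are set beside other bright probes or probes of the same signal.

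Over the 4 arrays, 5 of the 80 genes rose in SB cells and 0 fell past an adjusted p of 0.05 (limma, Benjamini-Hochberg over 28505 probes). That is 6.25% of the members, where 1.22% of all genes tested rose and 2.97% fell. Without adjustment, 22 of the 80 had a p under 0.05, as had 19.8% of all genes. The 5 were RPL4, RPL5 and RPL7 of the large subunit and RPS2 and RPS3 of the small subunit. Among 752 other protein-coding genes in the same brightest 5%, 3.46% rose and 1.73% fell. These are dimmer than the members on the median. Named coding probes in this 5% had a median log2 signal of 14.8, against 15.91 for the members. The count of 5 rests on the set of arrays: it was 1, 1 and 0 without arrays 1, 2 and 3 in turn (backgrounds 0.568%, 0.429% and 0.211%), and 44 without array 4 (background 2.74%).

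RPL4, a protein that lines the tunnel by which the nascent chain leaves the ribosome, had log2 ratios of 0.42, 0.39, 0.33 and 0.26 on arrays 1 to 4. All 4 were above 0 and close together, and the mean was 0.35 ± 0.07 (SD, n = 4 arrays), 1.27-fold higher (limma, adjusted p = 0.00626). RPS3, at the mRNA entry of the small subunit, had 0.35, 0.34, 0.19 and 0.29. Its mean of 0.29 ± 0.07 (SD, n = 4 arrays) was 1.22-fold higher (limma, adjusted p = 0.0149). These are the 2 called genes with the least spread, and each was read by a single probe. The test sets each gene against a ratio of 0 and not against probes of its own signal, which are taken up below.

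RPL7 had log2 ratios of 0.65, 0.36, 0.36 and 0.16 on arrays 1 to 4, with a mean of 0.38 ± 0.20 (SD, n = 4 arrays; limma, adjusted p = 0.0157). RPS2, also near the mRNA entry, had 0.54, 0.38, 0.18 and 0.22, with a mean of 0.33 ± 0.17 (SD, n = 4 arrays; limma, adjusted p = 0.0218). RPL5 had 0.55, 0.24, 0.34 and 0.15, with a mean of 0.32 ± 0.17 (SD, n = 4 arrays; limma, adjusted p = 0.0274). In these 3 genes every array was above 0, and array 1 gave the highest value. Their other probes gave a mixed picture. A second probe of RPL5 stood at 0.33 (limma, adjusted p = 0.00812) and the remaining one at −0.03. The other probes of RPL7 gave 0.16 and 0.11, and those of RPS2 gave 0.20 and 0.12, none past the threshold. Without array 3, none of the 5 genes was past the threshold, the adjusted p from limma being 0.0596 for RPL4 and RPS3 and 0.187 for RPL5.

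RPL23, another protein whose excess binds MDM2, had the highest mean of all 80 genes and did not pass the test. It did pass with no background correction and with no filter on dim probes (limma, adjusted p = 0.0473 and 0.0493), which gave 6 genes each. Its log2 ratios were 0.98, 0.56, 0.53 and −0.09, a mean of 0.50 ± 0.44 (SD, n = 4 arrays; limma, adjusted p = 0.0504). Array 4 alone was below 0. RPL11, the partner of RPL5 in the 5S particle, had 0.59, 0.30, 0.21 and −0.10 (adjusted p = 0.158 from limma). The lowest mean was that of RPL28, at −0.09 ± 0.24 (SD, n = 4 arrays), with 0.04, 0.18, −0.22 and −0.35 on the single arrays. In all, 68 of 80 genes had a mean above 0, and the median was 0.15, against 0.0018 in the other genes. Taken apart, the large subunit had a median of 0.12 (38 of 49 above 0) and the small subunit one of 0.16 (30 of 31 above 0).

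**Figure D1:**
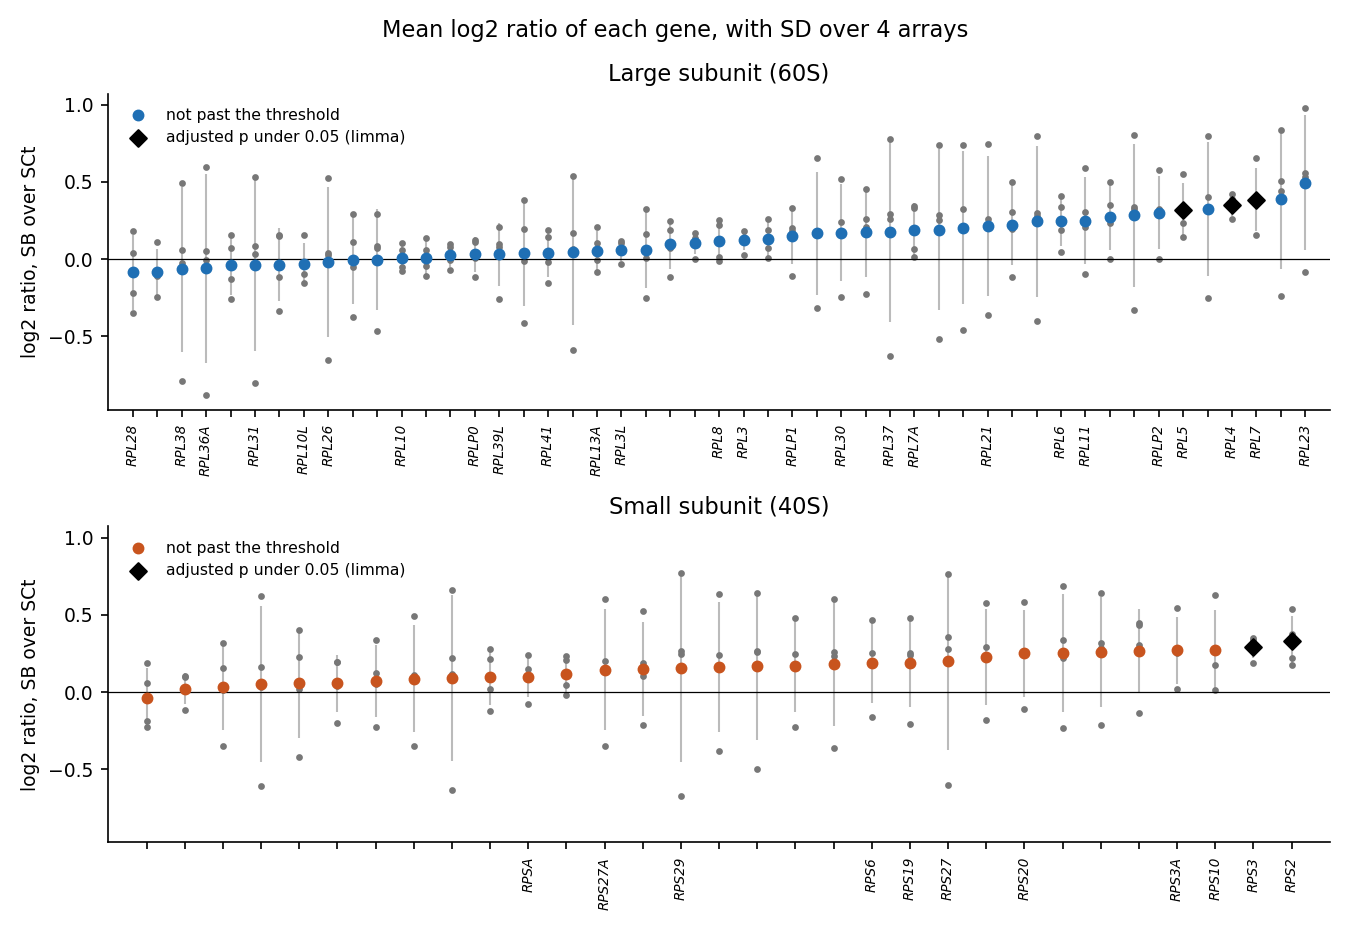
Mean log2 ratio of SB over SCt for each ribosomal protein gene (large circles or diamonds), with the SD over 4 arrays (bars) and the value of each array (small points), by subunit and ordered by mean, with names under the genes that the text describes. The 5 genes with an adjusted p under 0.05 (limma) are drawn as black diamonds; RPL23 has the highest mean, 0.50, and a wider SD, 0.44.

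Other probes of the same signal were shifted too. Each gene was set against the median of the 200 other probes nearest to it in mean signal. Probes of ribosomal protein pseudogenes, of ribosomal RNA and without a RefSeq name could be among these. Some of them may read ribosomal protein mRNAs, which was not tested. The median difference was 0.023 on the log2 scale, and 44 of 80 genes lay above their neighbours. The neighbours' own median was 0.14, since loess did not bring the very brightest probes to 0. For the 5 called genes the difference was 0.16 (RPL4), 0.24 (RPS3), 0.25 (RPL7), 0.13 (RPS2) and 0.15 (RPL5). Each was smaller than the gene's own log2 ratio, and these differences were not tested. With the 50 nearest probes the median difference of the 80 genes was 0.0078. With the 1000 nearest, most of them dimmer than the members, it was 0.14. The neighbours were of several kinds. Of the 200 brightest other probes, 88 had no RefSeq name, 93 were named coding genes and 6 read ribosomal RNA. Against named protein-coding genes only, a comparison chosen after seeing the data, the median difference was 0.084, with 60 of 80 genes above. With only 93 such probes among the 200 brightest, these neighbours reached to dimmer probes, and their own median was 0.063. Signal and kind thus changed together. Among the 200 brightest, the median was 0.22 for probes without a name and 0.17 for coding genes. The 6 probes for ribosomal RNA, the other part of the particle, lay between 0.61 and 1.13, with every array above 0 (limma, adjusted p between 7.38e-06 and 0.000675).

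**Figure D2:**
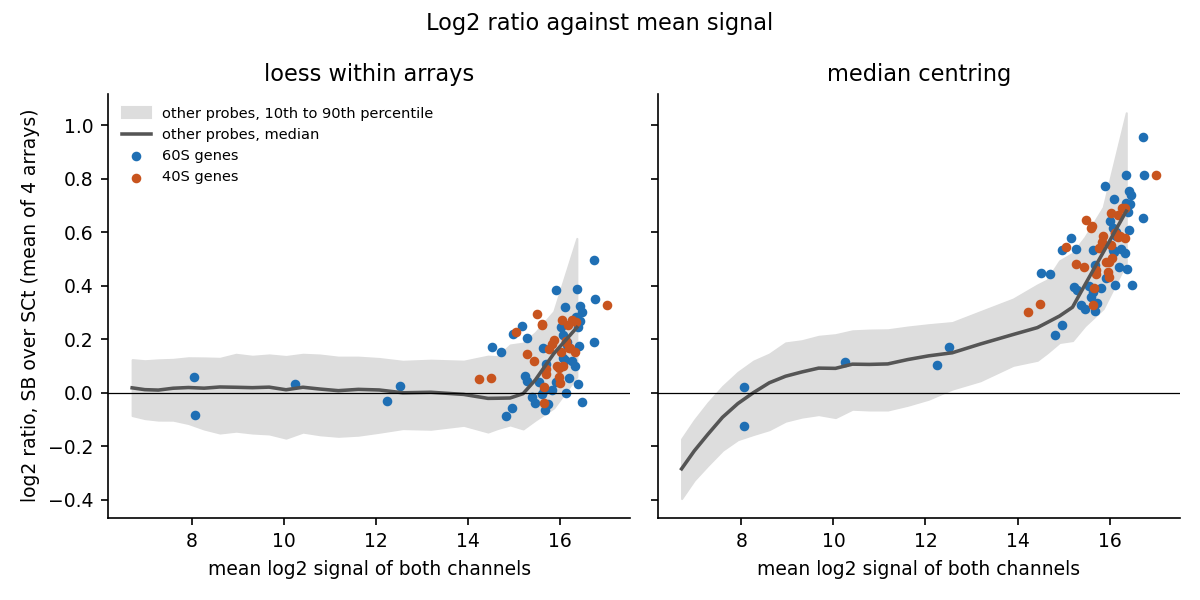
Mean log2 ratio of SB over SCt against mean log2 signal of both channels, after loess (left) and after median centring of each array (right). Points are the 80 ribosomal protein genes by subunit, the dark line is the median of all other probes in bins of signal and the grey band their 10th to 90th percentile; in both panels the line itself rises where most members lie, around a signal of 15.91.

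The scaling decided how many genes were called. With each array centred on its median in place of loess, 67 of 80 genes were higher (limma; background 20.3% of genes) and the median was 0.53. Other protein-coding genes in the brightest 5%, dimmer on the median than the members, were also mostly called higher. The share was 80.1% and the median 0.27. Under the ratios of the scanner software, 0 of 80 were called by limma (background 0.712%; 5 at an unadjusted p under 0.05, as had 18.9% of all genes) and the median was 0.049. In both cases the difference from the 200 neighbours stayed small, at 0.037 and 0.020.

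The ribosomal protein genes moved together from array to array. Ribosomal protein-like and, at a smaller size, mitochondrial ribosomal protein genes did so too, while the median of other bright genes did not. Genes outside these families, picked after their values were seen, also differed between arrays 1 and 4. Several belong to ATP synthase and the respiratory chain, which were not examined as a whole. The difference was 1.60 for ATP5F1E, 1.38 for NDUFB1, 1.30 for COX17, 1.24 for COX7B and 1.12 for UQCRB. Bright TMSB10 had 0.19, 0.13, −0.03 and −0.40 on arrays 1 to 4. In 45.0% of other bright coding genes array 1 was above array 4. The median log2 ratio of the 80 genes was 0.48 on array 1, 0.21 on array 2, 0.13 on array 3 and −0.21 on array 4. The genes above 0 numbered 79, 78, 63 and 15 on these arrays. Other bright protein-coding genes had medians of −0.02, −0.04, −0.02 and −0.0026, though they are dimmer on the median than the members. The mean of the 4 array medians, 0.15, was smaller than their SD of 0.29. With loess, the mean shift of the group was therefore not larger than the spread between arrays. With median centring the mean, 0.53, was larger than the SD, 0.35. Under that scaling, however, the members' 200 neighbours had medians of 0.57, 0.46, 0.62 and 0.45 on arrays 1 to 4. With loess, the members differed from their 200 neighbours by a median of 0.33, 0.13, 0.025 and −0.35.

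**Figure D3:**
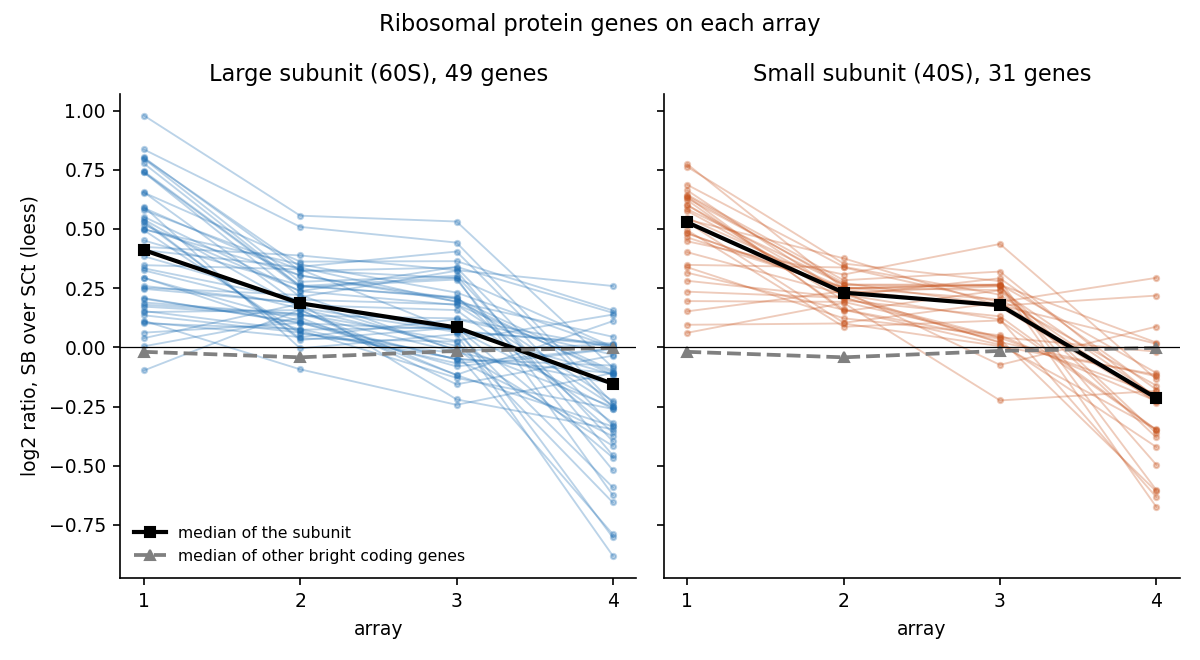
Log2 ratio of SB over SCt (loess) on each of the 4 arrays for every ribosomal protein gene (thin lines), with the median of the subunit (black squares) and the median of the other protein-coding genes in the brightest 5% of probes (grey triangles). The medians of both subunits go from above 0.4 on array 1 to below −0.1 on array 4. The other bright genes, dimmer on the median than the members, stay near 0. Array numbers carry no order.

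The same 2 arrays stood at the ends in nearly every gene. Array 1 gave a higher value than array 4 in 78 of 80 genes, where this held for 49.1% of the other genes and 45.0% of the other bright coding genes. Array 1 was the highest of the 4 in 71 genes and array 4 the lowest in 69, against 25.8% and 27.0% of other genes. The exceptions were RPLP0, the stalk's base protein, and RPL10L. RPLP0 had 0.0043, 0.12, −0.12 and 0.11 on arrays 1 to 4. The median SD between arrays was 0.27 for the 80 genes and 0.11 for other genes. In 291 other probes at least as bright as the middle members it was 0.13. An SD over 0.2 was found in 65.0% of members, 10.7% of other genes and 30.2% of these bright probes. This order of arrays was the same with the scanner software's ratios, whose medians were 0.36, 0.10, 0.071 and −0.26. With median centring the medians were 0.92, 0.56, 0.59 and 0.061. Arrays 1 and 4 were again the ends, and arrays 2 and 3 changed places.

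The largest differences between arrays 1 and 4 were found in RPL36A (1.47), RPS29 (1.45), RPL37 (1.40), RPS27 (1.36) and RPL31 (1.34), all structural proteins of the ribosome with high numbers in their names. RPL36A had log2 ratios of 0.59, −0.0044, 0.056 and −0.88. RPL31 had 0.53, 0.031, 0.084 and −0.80, and RPL38 had 0.49, 0.058, −0.026 and −0.79. Their means, −0.06, −0.04 and −0.07, lay near 0, because array 1 and array 4 opposed each other. RPS29 had 0.77, 0.25, 0.26 and −0.67. Across all members, array 1 minus array 4 ran from −0.11 in RPLP0 to 1.47 in RPL36A, with a median of 0.62. It was over 1 in 20 genes and under 0.2 in 10. The 5 called genes lay at the low end or the middle of this range, at 0.17 for RPL4, 0.055 for RPS3, 0.32 for RPS2, 0.41 for RPL5 and 0.50 for RPL7. The test favours genes with a small spread between arrays, so their place in this range follows in part from the selection.

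The size of this difference followed the number in the protein's name. Mammalian ribosomal proteins were numbered by their place on gels, so that a high number goes, roughly, with a small protein and a short mRNA. In the large subunit, the median of array 1 minus array 4 was 0.36 for the 20 genes numbered up to 20 and 1.07 for the 23 numbered above. In the small subunit it was 0.63 for 21 genes and 1.14 for 9 genes. Spearman's rho between the number and the difference was 0.67 over 43 large subunit genes and 0.72 over 30 small subunit genes (Pearson's r, 0.69 and 0.74). These are correlations across genes that share the same 4 arrays, and genes are not independent replicates. The mean log2 ratio itself had a rho of −0.30 with the number in the large subunit and −0.08 in the small subunit. Several genes numbered above 20 departed from this order, among them RPL22 (0.11), RPL28 (0.38) and RPL41, which encodes the shortest of these proteins. For RPL41 the difference was 0.34, from values of 0.19, 0.14, −0.02 and −0.15.

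**Figure D4:**
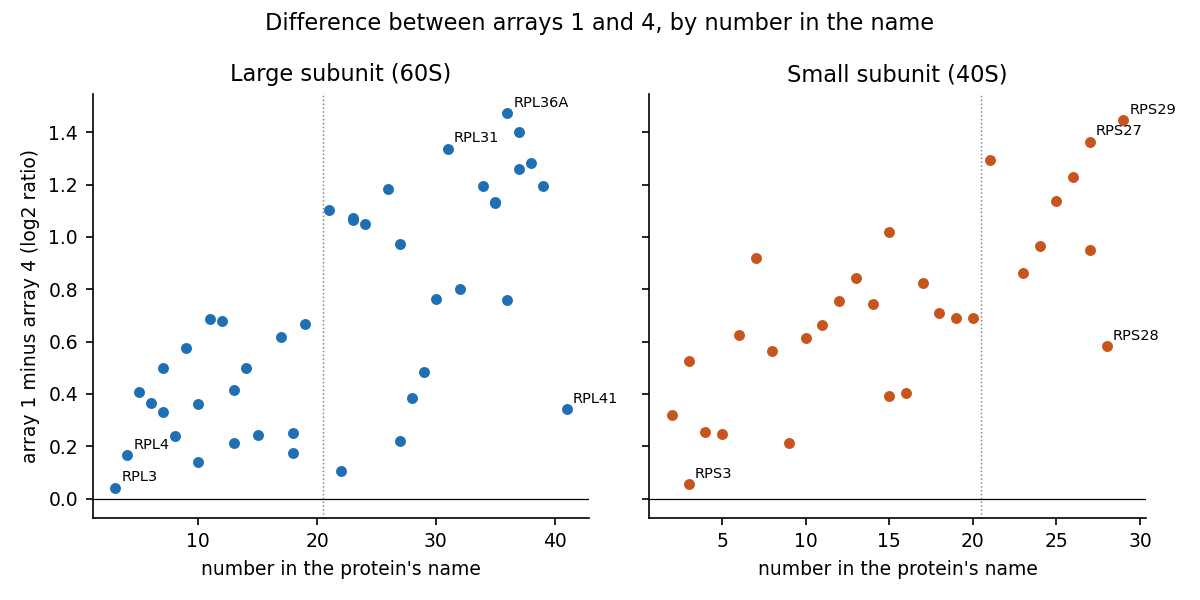
Log2 ratio on array 1 minus that on array 4 for each ribosomal protein gene, against the number in the protein's name, by subunit, with the stalk proteins, RPSA and the tissue-restricted paralogs left out. The dotted line parts names up to 20 from those above; medians on its 2 sides are 0.36 and 1.07 for the large subunit and 0.63 and 1.14 for the small subunit.

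The signal of each channel was also examined, scaled by the channel's median, as a deviation from each gene's mean over the 4 arrays. In the SCt channel the median deviation of the 80 genes was −0.30 on array 1, 0.04 on array 2, −0.14 on array 3 and 0.40 on array 4. Only 1 of 80 genes was above its mean on array 1, and 78 were on array 4. The SB channel moved less, with 0.04, 0.11, −0.05 and −0.10. In 286 other bright probes, the SCt channel gave −0.02, 0.07, −0.20 and 0.18, so that it was also highest on array 4. Their SB channel gave 0.06, 0.04, −0.15 and 0.07, where the members stood at −0.10 on array 4. Scaled in this way, without correction for signal, the members' difference between arrays 1 and 4 lay mostly in the control channel. The part of labelling, RNA quality or the hybridization of single arrays in it was not tested.

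**Figure D5:**
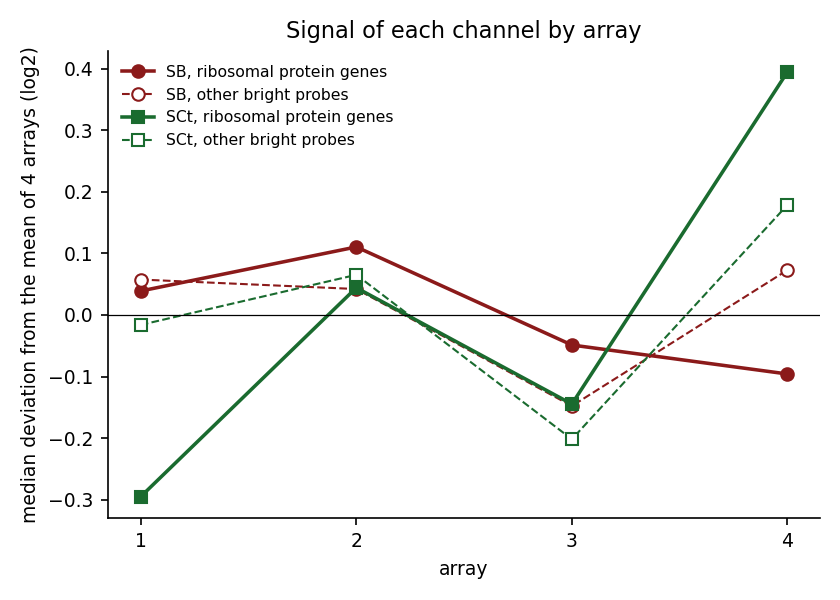
Median deviation of log2 signal from each gene's mean over the 4 arrays, after scaling each channel by its median, for the 80 ribosomal protein genes (filled symbols, solid lines) and 286 other bright probes (open symbols, dashed lines), in the SB channel (circles) and the SCt channel (squares). The SCt channel of the ribosomal protein genes goes from −0.30 on array 1 to 0.40 on array 4.

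Members with special roles are given next. The 3 proteins of the acidic stalk, which recruits translation factors, had means of 0.03 for RPLP0, 0.15 for RPLP1 and 0.30 for RPLP2. RPLP2 was above 0 on all arrays, with 0.58, 0.33, 0.29 and 0.0016 (limma, adjusted p = 0.0650). RPS6, whose protein is the classic substrate of the S6 kinases, had 0.46, 0.25, 0.20 and −0.16, a mean of 0.19 ± 0.26 (SD, n = 4 arrays). RPS19, the gene most often mutated in Diamond-Blackfan anaemia, had 0.48, 0.25, 0.24 and −0.21. RPSA, also known as the laminin receptor, had 0.15, 0.24, −0.07 and 0.09, and showed little of the difference between arrays 1 and 4. The 4 members on the chromosome arm of MTDH, RPL7, RPL8, RPL30 and RPS20, had a median of 0.21 and means between 0.12 and 0.38. Only RPL7 of these passed the test. The tissue-restricted paralogs RPL3L (muscle), RPL10L and RPL39L (testis) gave means of 0.06, −0.03 and 0.03. They are dimmer than nearly all other members, and none was past the threshold.

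On all 4 arrays, 12 of 80 genes were above 0 (15.0%) and 0 were below, where 13% of all genes were above on every array and 14.9% below. Among those not called were RPL3, RPL6, RPL7A, RPLP2, RPS3A and RPS10. RPL3, a protein of the peptidyl transferase region, had 0.18, 0.14, 0.03 and 0.14 (limma, adjusted p = 0.269). An exact sign-flip test over 4 arrays cannot give a two-sided p below 0.125, so single genes were judged only by the fit across all probes.

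The spread within arrays and between the probes of a gene was examined as well. RPS6, RPL30 and RPLP0 each had a probe spotted 10 times on every array, and the SD between spots of 1 array was 0.025 to 0.070. Among 39 genes with several probes tested, the log2 ratios of a gene's probes spanned a median of 0.17 and never more than 0.5. The widest span was in RPL21, whose 9 probes ran from −0.01 to 0.42. In 19 genes, probes of both signs were found. Array 1 was above array 4 in 141 of the 152 probes tested, and in every probe of 33 of these 39 genes. Many pseudogenes and processed copies resemble these mRNAs, so a probe may read more than its own gene.

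Related genes outside the rule were examined next. The 5 ribosomal protein-like genes RPL7L1, RPL22L1, RPL26L1, RPL36AL and RPS27L had array medians of 0.34, −0.02, −0.02 and −0.62, and 0 of 5 were called. RPL36AL, a near copy of RPL36A, had 0.50, −0.02, 0.04 and −0.80. RPL7L1 differed from the rest of the 5, with 0.10, 0.07, −0.07 and 0.11. Of 76 mitochondrial ribosomal proteins, 0 rose and 2 fell, MRPL16 at −0.34 and MRPL50 at −0.37 (limma, adjusted p = 0.0230 and 0.0124). The array medians of these 76 genes were 0.14, 0.04, −0.05 and −0.20, the same order of arrays at a smaller size.

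Of 28 other genes of TOP mRNAs and the translation machinery, 2 rose and 2 fell, with a median of −0.03. EEF1A1, the elongation factor that delivers aminoacyl-tRNA, had 0.34, 0.50, 0.12 and 0.68 (limma, adjusted p = 0.0170), with its highest value on array 4. TPT1, a translationally controlled tumour protein, had 0.45, 0.31, 0.26 and 0.26 (limma, adjusted p = 0.0112). EIF4A2, an RNA helicase of translation initiation, fell by 0.27 (adjusted p = 0.0247 from limma) and the histone chaperone NAP1L1 fell by 0.32 (adjusted p = 0.0143 from limma). The array medians of this list were 0.07, 0.07, −0.06 and −0.09. Of 53 ribosome biogenesis factors, 0 rose and 1 fell, with a median of −0.04. The 1 was UBTF, a factor of rRNA gene transcription, at −0.54, −0.45, −0.69 and −0.48 on arrays 1 to 4 (limma, adjusted p = 0.000557). Of 27 bright housekeeping genes, ACTB rose (0.41; limma, adjusted p = 0.00691) and LGALS1 fell (−0.54; limma, adjusted p = 0.00171). Their array medians of 0.06, 0.11, −0.09 and 0.06 did not follow the order seen in the ribosomal protein genes.

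Probes were last ranked by array 1 minus array 4, with no regard to gene. Of the 100 highest among 28249 probes with values on both arrays, 28 were probes of ribosomal protein genes, which make up 0.538% of these probes. These 28 were 18.4% of the members' probes. Of the 1000 highest, 88 were members' probes, or 57.9% of them, 26 were probes of mitochondrial ribosomal proteins and 257 had no RefSeq name.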

How the data were processed

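RNA of SB and SCt cells was compared on 4 two-colour arrays on 1 slide. The authors deposited Feature Extraction 10.5.1.1 output per array, with median red and green intensity and local background on a linear scale, not normalized, and the software's own ratio on a log10 scale. A deposited series table holds log2 values of SB over SCt that equalled the software's processed ratio within 0.001 for 97.6% to 97.9% of 34127 probes. In R 4.3.3 with limma 3.58.1, all 44495 spots were background-corrected (normexp, offset 50). The 1377 control spots and outlier spots (814 to 1168 per array) were left out, ratios were normalized by loess and spots of a probe averaged. The 28505 probes with 1 channel well above background on every array and at least 2 values were kept and fitted with lmFit and eBayes. Names came from RefSeq for 24826 probes. On simulated arrays of 28505 probes, 200 of 200 changed probes were recovered, with 28 unchanged ones among 228 calls (7 among 207 with trend and robust options). Named members were those called, the highest and lowest of one sign on all arrays, and a list by role; RPL28, RPL31, RPL36A, RPL37, RPL38, RPL21, RPS27 and RPS29 were named after their values were seen. The members and lists were chosen with earlier results of these data known. The number of arrays limits the precision. An item withheld for evaluation is not reported here by name. Alternatives are given at the end.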

Additional observations from a re-analysis of the deposited data

How the results depend on the processing

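The count of 5 ribosomal protein genes was 0 with the software's ratios, with the series table and with the methods' t-test (at an unadjusted p under 0.05, 6 by that test and 5 by limma on each of the ratios, against 14.9%, 18.9% and 19.3% of all genes), 1 with trend and robust options (RPL4; 0.314% of all genes rose), 2 when a gene's probes were averaged (RPL4 and RPS3; 1.31%) and 3 with normexp without an offset (0.88%). It was 6, with RPL23 added, with no background correction (1.27%) and with no filter on dim probes (1.17%). It was 67 with median centring and ranged from 0 to 44 with an array left out. The median of 0.15 became 0.53 with median centring and 0.037 to 0.27 with an array left out. With median centring and an array left out, chosen after seeing the data, the counts were 47, 49, 44 and 76 (9.46%, 8.1%, 9.58% and 20.5% of all genes) and the medians 0.41, 0.51, 0.49 and 0.66 without arrays 1 to 4. The median difference from 200 neighbours ran from −0.092 (without array 1) to 0.18 (without array 4), so it changed sign. MTDH, at −3.18, was not past the threshold by the methods' t-test (adjusted p = 0.143). With the software's ratios and the series table, RPL10 (−0.077), RPL13A (−0.069), RPL41 (−0.035) and RPLP0 (−0.11) turned negative. RPL10L (0.10) and RPL26 (0.33) turned positive with median centring, and with the mean over probes RPL13A (−0.052) and RPL26 (0.020) changed sign. None of these changed values was past the threshold in either direction. With an array left out, values of both signs were found in RPL10 (−0.022 to 0.038), RPL10L (−0.096 to 0.0088), RPL26 (−0.20 to 0.20), RPL39L (−0.028 to 0.13), RPL41 (−0.012 to 0.103), RPLP0 (−0.0004 to 0.080) and RPS27A (−0.0062 to 0.31). Of 31 named genes under 17 settings, 434 values kept their direction and side of the threshold. Of the rest, 20 changed direction, 37 lost the threshold and 36 came past it. No paired analysis was possible because the ratio of each array already pairs the SB and SCt samples, which leaves no further pairing to add. The causes were not tested. Signal over background did not limit the members, all well above it.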

Other observations

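Outside the ribosomal protein genes, other genes stood among the probes with the largest difference between array 1 and array 4; they were picked after their values were seen. The difference in log2 ratio was 1.60 for ATP5F1E, a subunit of ATP synthase, 1.48 for PIN4, a peptidyl-prolyl isomerase, 1.38 for NDUFB1 of respiratory complex I and 1.30 for the copper chaperone COX17. It was 1.77 for the small nuclear RNA RNVU1-18, 1.60 for the small nucleolar RNA SNORD3B-1 and 1.41 for RPL23P8, a pseudogene of RPL23.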
